A study of Mus musculus with 55 samples.

Results

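The genes described here are 41 chemokines and chemokine receptors, read by gene symbol from the 47606 genes of each of the deposited RNA tables of mouse bladder tumours. Of these, 27 are ligands and 14 are receptors, and all 41 were listed in both tables. The rule reads gene names and uses no measured value, though it was set with earlier results of these data known. The ligands were grouped into the inflammatory CC ligands Ccl3, Ccl4, Ccl5, Ccl6 and Ccl9, the monocyte chemoattractant family Ccl2, Ccl7, Ccl8 and Ccl12, the eotaxins Ccl11 and Ccl24, the CCR4 ligands Ccl17 and Ccl22, the mucosal ligands Ccl20, Ccl25 and Ccl28, the neutrophil-attracting Cxcl1, Cxcl2, Cxcl3 and Cxcl5, the tissue-resident CXC ligands Cxcl12, Cxcl13, Cxcl14 and Cxcl17, and the membrane-anchored or C-type ligands Cxcl16, Cx3cl1 and Xcl1. The receptors were 7 CC receptors, 4 CXC or CX3C receptors and 3 atypical receptors.

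Chemokines are small proteins, mostly secreted, that steer leukocytes along concentration gradients by binding G protein-coupled receptors on the moving cell. Typical receptors signal through inhibitory G proteins to turn the cytoskeleton, while atypical receptors bind and clear chemokines without that signal. In tumours, ligands come from carcinoma cells, fibroblasts, endothelium and infiltrating leukocytes, and several ligands and receptors are themselves products of macrophages, neutrophils or lymphocytes.

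The promoter stretches shown here are of the members in which the NF-kappaB word GGAANTTCC lies within the 250 bases before the start site of the promoter table. That start is the annotated gene start for Ccl12, Cxcl1, Cxcl2 and Cxcl3, and for Ccr3 it lies 4146 bases inside the gene model, so the Ccr3 stretch is within the gene. NF-kappaB is a transcription factor family with known sites in promoters of neutrophil-attracting chemokines. Of the 5 stretches, 3 belong to such ligands in the same cluster on chromosome 5, Cxcl1, Cxcl2 and Cxcl3. Only Cxcl3 of these passed the test between entinostat and vehicle tumours. Each stretch is given 5′ to 3′ on the plus strand, the strand of all 5 genes, from RefSeq promoter sequence, build GRCm38.p6, with the match in capitals.
Ccl12 (chr11:82101788-82101844), match 17 to 9 bases before the start: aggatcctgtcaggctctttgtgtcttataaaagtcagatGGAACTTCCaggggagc
Cxcl1 (chr5:90891135-90891223), match 70 to 62 bases before the start: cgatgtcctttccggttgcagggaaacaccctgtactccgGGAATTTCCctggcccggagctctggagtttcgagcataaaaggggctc
Cxcl2 (chr5:90903763-90903851), match 96 to 88 bases before the start: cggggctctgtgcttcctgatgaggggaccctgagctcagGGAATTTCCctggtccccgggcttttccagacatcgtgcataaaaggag
Cxcl3 (chr5:90785989-90786077), match 72 to 64 bases before the start: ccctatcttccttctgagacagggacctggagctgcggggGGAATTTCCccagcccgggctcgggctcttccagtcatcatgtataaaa
Ccr3 (chr9:124021752-124021840), match 179 to 171 bases before the start: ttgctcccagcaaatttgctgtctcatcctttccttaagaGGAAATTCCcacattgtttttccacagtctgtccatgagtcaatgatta
A promoter window was found for 30 of the 41 genes. The word reads the same on both strands and was found for 5 of those 30 genes, against 0.813% of all 32851 mouse windows of the same length. Member counts are of genes and the shares are of windows, and Ccl25 and Ccr6 have more than 1 window. The words TATAAA (9 members, 12.4% of all windows), GGGCGG (6 members, 32.7%) and TGANTCA (3 members, 6.75%) were also counted. Each was searched on both strands, and none of their matches overlapped the capitals above. A match describes letters, not binding.

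Several of the genes lie in clusters (mm10 coordinates, from the GRCm38 annotation). Ccl2, Ccl7, Ccl11, Ccl12 and Ccl8 lie at chr11:82035577-82116799, and Ccl5, Ccl9, Ccl6, Ccl3 and Ccl4 at chr11:83525778-83664683. Cxcl5, Cxcl3, Cxcl1 and Cxcl2 span 146.6 kb at chr5:90759298-90905938. Ccl22, Cx3cl1 and Ccl17 span 66.4 kb at chr8:94745684-94812038, and the receptor genes Ccr9, Cxcr6, Ccr1, Ccr3 and Ccr2 span 341.9 kb at chr9:123767211-124109140. The gene models of Ccl3 and Ccl4 overlap each other, as do those of Ackr1 and Cadm3, Cxcl16 and Zmynd15, Cxcr6 and Fyco1, Cxcr5 and Bcl9l, and Ccr10 and Cntnap1. The library kit keeps strand, but whether the counting used it is not given in the sources used here, so reads in those overlaps are of uncertain origin.

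All tumours grew from BBN963, a mouse bladder cancer line from a carcinogen-induced tumour of a C57BL/6 mouse, so each is a transplant of 1 line. In the C57BL/6 host (B6, immune-competent) the cells were injected under the skin, and tumours of 200 mm3 were assigned at random to vehicle or to chow with entinostat (12 mg/kg), which inhibits the class I enzymes that remove acetyl groups from histones. Tumours on entinostat were taken at 100 mm3. The labels give no collection volume for baseline and vehicle tumours, and neither dose nor volumes for the NSG host, so treatment cannot be told apart from tumour size. NSG mice lack T, B and NK cells and keep neutrophils and macrophages. The RNA libraries were B6 baseline (n = 4), vehicle (n = 6) and entinostat (n = 5 of the 6 samples labelled), and NSG baseline, vehicle and entinostat (n = 5 each), 30 in all. Each is a numbered mouse (NSG mice carry the host in their name here), no mouse is in more than 1 group, and ages were not stated.

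Values are read counts per gene after DESeq2 scaling, with 1 table per host, so levels are not compared between hosts, nor between genes, whose lengths differ. Summed values per library were 21.2 to 37.2 M (M, 1e6), and the depth estimated from the smallest steps was 11.3 to 51.0 M reads. B6 vehicle libraries 408 and 414 were the closest of the 105 B6 pairs: the SD of their log2 ratios was 0.332, against 0.671 for the next pair. Their difference still exceeded counting noise (median chi-square 6.35 times expectation), which libraries from 1 tumour could also do. They were kept as 2 tumours because the labels give 2 mouse numbers, and the values with their average in their place are among the alternatives. B6 vehicle 402 stood apart with the highest summed macrophage and fibroblast markers of its group (96484 and 477077), and vehicle 405 had the lowest (7986 and 2673).

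The B6 entinostat tumours differed from the other B6 tumours in the markers of nearly every cell type listed. Summed levels of 14 macrophage and monocyte markers were 461941 to 1094689 with entinostat, 7986 to 96484 with vehicle and 11587 to 45014 at baseline. Summed fibroblast markers were 1061042 to 1548983, 2673 to 477077 and 9754 to 163859.9 in the same order. Summed epithelial markers were 1271 to 6260.3 with entinostat, 158938 to 597503 with vehicle and 200895 to 568734 at baseline, and all 10 fell against vehicle, so the defining markers of the labelled bladder tumour were near the bottom of their range after treatment. Against vehicle, 14 of 14 macrophage, 10 of 10 fibroblast, 7 of 7 endothelial, 12 of 13 T cell and 6 of 9 neutrophil markers rose. Dendritic cell markers rose in 6 of 8 cases and NK cell markers in 4 of 5, and 1 of each fell. Of all genes, 29.9% were higher and 26.2% lower. Against baseline, 14 of 14 macrophage, 10 of 10 fibroblast, 6 of 7 endothelial and 8 of 9 neutrophil markers were higher. So were 9 of 13 T cell, 5 of 8 dendritic cell, 2 of 5 NK cell and 3 of 7 skeletal muscle markers, beside 29.1% of all genes. Markers of tissue around a tumour rose too against vehicle. All 7 skeletal muscle markers rose, with summed levels of 147 to 420830.1 with entinostat, 31.5 to 72.7 with vehicle and 36.7 to 13399.7 at baseline. So did 4 of 6 adipocyte markers, with 35179.8 to 70588, 155 to 5851 and 349.6 to 2241. In these bulk tumours, fewer cells of a type and less RNA per cell cannot be told apart. In NSG tumours, 0 of 88 markers tested passed between entinostat and vehicle (limma, with 9 at an unadjusted p under 0.05). Summed epithelial markers were 216307 to 259796 with entinostat and 186689.8 to 323543 with vehicle, and summed T cell markers were at most 981. Ncr1, 1 of 6 NK cell markers, was listed at 0 in all 15 libraries. The other NK cell markers were not at 0 throughout, and summed levels of the list were 225 to 410 with entinostat and 151 to 309.9 with vehicle.

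**Figure D1:**
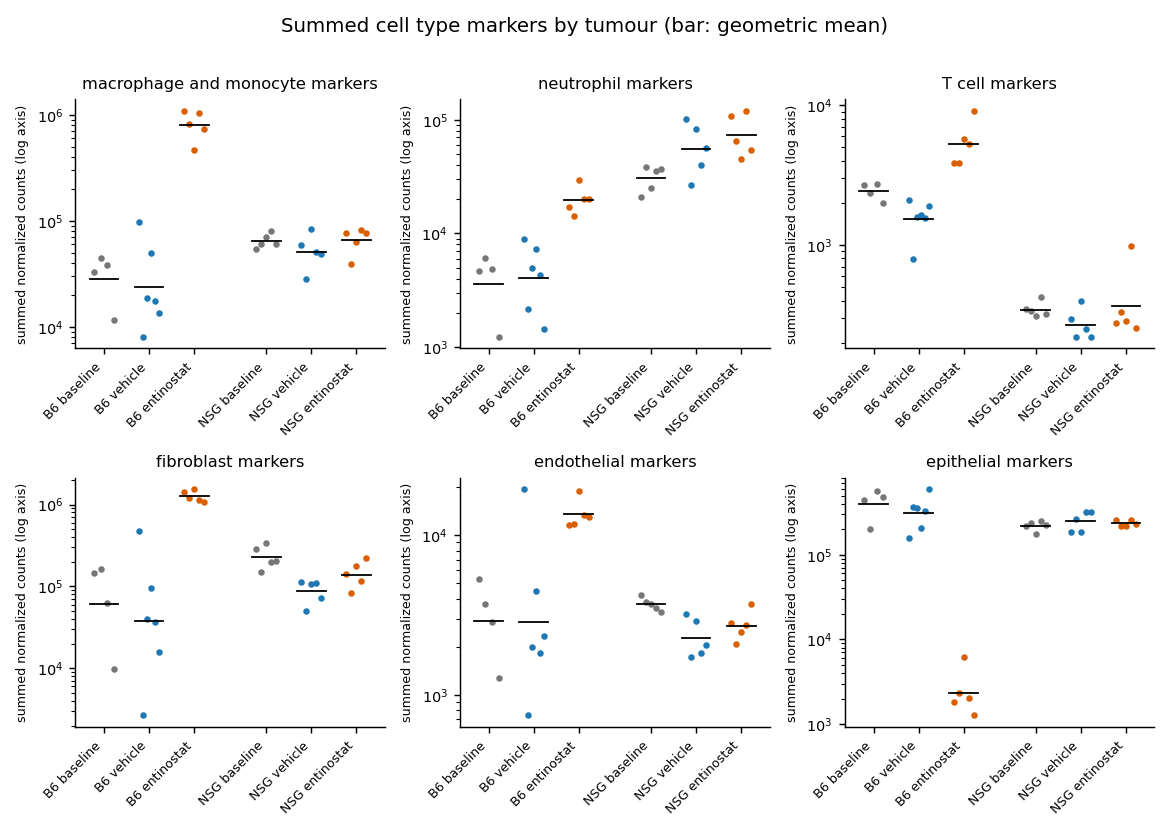
Summed level of the markers of 6 cell types (normalized count, log axis) in each tumour, by group (B6 and NSG; grey baseline, blue vehicle, orange entinostat). In B6 entinostat tumours the macrophage sums lie at 461941 to 1094689 and the epithelial sums at 1271 to 6260.3, outside the other B6 groups.

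In B6 hosts the question was which chemokine genes differ between entinostat and vehicle tumours. Of 38 members that passed the filter on low values (a value of 10 or more in at least 4 libraries), 22 rose and 5 fell with entinostat. Over all 17053 genes tested, 29.9% were higher and 26.2% lower, and the median log2 difference was 2.40 for the members and -0.01 for all genes. Receptors rose in 9 of 12 cases and fell in none. Ligands rose in 13 of 26 and fell in 5, namely Cxcl3, Cxcl5, Ccl25, Ccl20 and Cx3cl1. The number that fell was 3 without any 1 of baseline 419, vehicle 410 and entinostat 411, 421 and 423. It was 2 without any 1 of vehicle 402, 408 and 414 and entinostat 413. Cxcl3 and Ccl25 fell in each of these. Some omissions added members that fell: Cxcl2 and Cxcl17 without vehicle 424, Cxcl2 without entinostat 421, Cxcl17 without entinostat 418 and Xcl1 without vehicle 405. Ccr4 reached the filter through entinostat libraries alone, and Ccr3 and Cxcr5 would not have passed without them, so their presence among the tested genes is tied to their level after treatment. Ccr9 reached it in 4 libraries and would not have passed it without entinostat or without baseline libraries. Likewise Ccl20 and Cxcl17 would not have passed it without vehicle libraries, and Ccl20 reached it in 4 baseline and vehicle libraries alone. Differences are on the log2(value + 1) scale, tested with limma, and a gene is said to rise or fall at an adjusted p under 0.05. The part that the marker shifts above play in the member values was not tested.

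**Figure D2:**
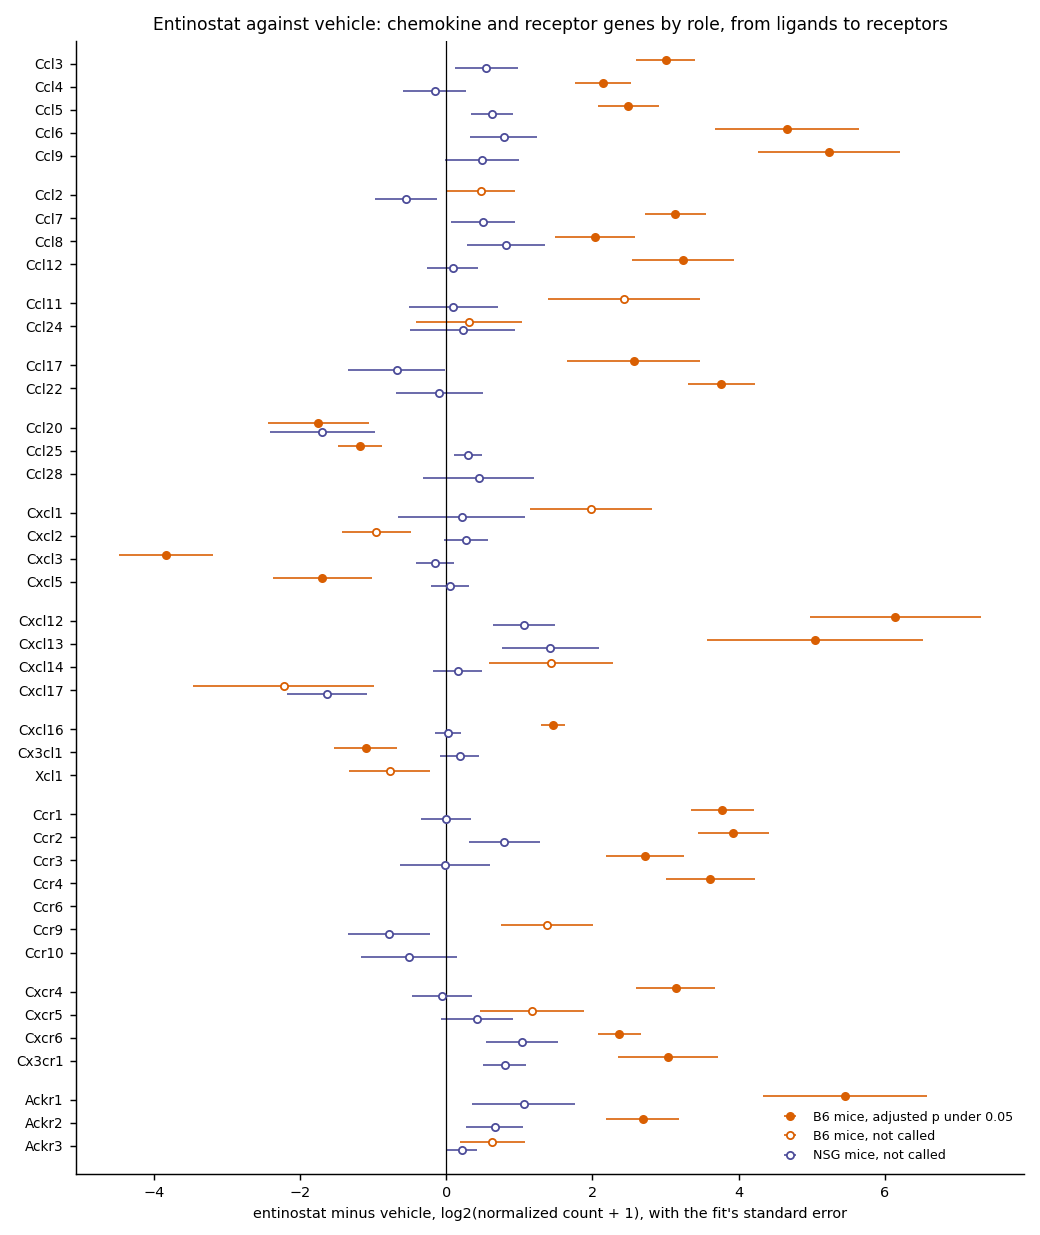
Log2 difference between entinostat and vehicle (x axis, log2 of normalized count + 1; bars are 1 SE) of each tested member, grouped by role from top to bottom, in B6 (orange) and NSG (blue-purple) tumours. Filled points passed an adjusted p of 0.05 and open points did not; the B6 points run from -3.83 (Cxcl3) to 6.14 (Cxcl12), and every NSG point is open.

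All 5 inflammatory CC ligands rose in B6 entinostat tumours. Ccl3 (MIP-1alpha), which recruits monocytes and T cells through CCR1 among other receptors, stood at 889, 504, 356, 1145 and 675 in the entinostat libraries (in order of mouse number), at 60.0 to 114 (median 81.2) in vehicle and at 101, 190.2, 242 and 48.1 at baseline. Every entinostat library was above every vehicle library, and the log2 difference was 3.00 (SE 0.40, adjusted p = 2.1e-05). Its neighbour Ccl4 (MIP-1beta) stood at 456, 389.7, 258, 744 and 472 with entinostat and 52.1 to 165 (median 103) with vehicle, also without overlap, a difference of 2.14 (SE 0.39, adjusted p = 0.000298). Ccl5 (RANTES), made by activated T cells among others, stood at 391, 899, 1093, 738 and 1772 with entinostat and 100.4 to 306.4 (median 135) with vehicle. The lowest Ccl5 value with entinostat, in library 411, was above the highest vehicle value, in library 402, and the difference was 2.49 (SE 0.41, adjusted p = 0.000147).

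Ccl6 and Ccl9, rodent ligands of CCR1 made largely by myeloid cells, showed wider differences. Ccl9 stood at 42352, 23133, 12479.8, 21294 and 27739 in entinostat libraries, and in vehicle libraries at 4549, 55.3, 561, 3290.3, 411 and 297. The vehicle values spanned a wide range, from library 405 at the bottom to 402 at the top, and still lay below all entinostat values, with a difference of 5.24 (SE 0.97, adjusted p = 0.000373), or 37.8-fold. Ccl6 stood at 38323, 31936, 15758, 36847 and 15038 with entinostat and 5118, 82.0, 982, 7402, 931 and 363 with vehicle, again low in 405 and high in 402 and 410, a difference of 4.66 (SE 0.99, adjusted p = 0.00104). Without vehicle 405 these differences were 4.55 for Ccl9 and 3.94 for Ccl6. The summed macrophage markers of the same vehicle libraries were 7986 in 405, 96484 in 402 and 49903 in 410.

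The monocyte chemoattractant family split. Ccl7 (MCP-3), a CCR2 ligand, stood at 2665, 3179, 3907, 5036 and 1899 with entinostat and 169 to 908 (median 381) with vehicle, without overlap, a difference of 3.13 (SE 0.42, adjusted p = 2.14e-05). Ccl12 (MCP-5), another CCR2 ligand, stood at 692, 458, 754, 1897 and 452 with entinostat and 13.6 to 414 (median 59.4) with vehicle, without overlap, a difference of 3.24 (SE 0.70, adjusted p = 0.00115). Ccl8 (MCP-2) stood at 10239, 8783, 21031, 25485 and 5592 with entinostat and 1057 to 9629.7 (median 3053) with vehicle, where the ranges overlapped and the difference was 2.03 (SE 0.55, adjusted p = 0.00537). Ccl2 (MCP-1), the main CCR2 ligand and the first gene of the same block on chromosome 11, did not pass the test: it stood at 1972, 1755, 1680.1, 2476 and 1077 with entinostat and 1334, 1647, 955, 434, 916 and 4489 with vehicle, a difference of 0.47 (SE 0.47, adjusted p = 0.406). The vehicle range of Ccl2, from 410 at the bottom to 424 at the top, contained all 5 entinostat values.

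The eotaxins, which draw eosinophils through CCR3, did not pass the test between entinostat and vehicle with all B6 libraries. Ccl11 ranged over 60.9 to 8063 in vehicle tumours and 1523 to 6192 with entinostat, with a difference of 2.44 (SE 1.04, adjusted p = 0.0575). This rests on single vehicle libraries: Ccl11 passed without vehicle 405 (3.19, adjusted p = 0.00687) or 424 (2.75, adjusted p = 0.0447), and with cyclic loess normalization (2.51, adjusted p = 0.0482). Ccl24 ranged over 38.0 to 129 and 26.3 to 394, with a difference of 0.31 (SE 0.72, adjusted p = 0.732). Their receptor Ccr3 is described with the receptors.

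Both CCR4 ligands, which attract regulatory and type 2 helper T cells, rose. Ccl22 (MDC), made by dendritic cells and macrophages, stood at 1146, 561, 706, 975 and 2617 with entinostat, at 103, 27.02, 116, 107, 102 and 49.7 with vehicle and at 90.1, 170.0, 108 and 52.3 at baseline. The lowest entinostat value was well above the highest vehicle value, and the difference was 3.76 (SE 0.46, adjusted p = 9.55e-06), or 13.6-fold. Ccl17 (TARC) stood at 258, 26.5, 80.0, 289 and 99.5 with entinostat and 19.1, 1.52, 62.4, 43.3, 62.7 and 3.78 with vehicle, with overlapping ranges and a difference of 2.56 (SE 0.91, adjusted p = 0.0252). The Ccl17 call was lost when any 1 of vehicle 405, 424, entinostat 411 and 421 was left out (adjusted p 0.0529 to 0.0671). Of 8 dendritic cell markers 6 rose and 1 fell, with a median log2 difference of 2.64, where 29.9% of all genes rose and 26.2% fell. Their summed levels, in which abundant markers weigh most, overlapped, at 7164 to 23137 with entinostat and 6495 to 8075 with vehicle.

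Cx3cl1 (fractalkine), the membrane-anchored ligand of CX3CR1, lies between Ccl22 and Ccl17 on chromosome 8 and moved the other way. It stood at 230.0, 263, 395, 322.7 and 338 with entinostat and 1368, 163, 1063, 816, 979 and 412 with vehicle. Vehicle 405 lay below all entinostat libraries, so the ranges overlapped, and the difference was -1.10 (SE 0.43, adjusted p = 0.0415). The call was lost when any 1 of baseline 415, vehicle 402, 408, 410, 414, entinostat 411, 413, 421 and 423 was left out (adjusted p 0.0505 to 0.0901).

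Of the mucosal ligands, products of epithelia, Ccl25 and Ccl20 fell and Ccl28 was not tested. Ccl25 (TECK), the CCR9 ligand, stood at 52.2, 69.9, 78.7, 47.8 and 74.9 with entinostat and 100.0, 92.1, 177, 162, 170.5 and 207 with vehicle, without overlap, a difference of -1.18 (SE 0.30, adjusted p = 0.00347). Ccl20, the CCR6 ligand, was low throughout, at 4.69, 2.42, 0, 3.39 and 6.09 with entinostat and 17.9, 7.11, 9.63, 2.50, 13.0 and 38.2 with vehicle, and the difference was -1.75 (SE 0.68, adjusted p = 0.0405). Its call was lost without any 1 of vehicle 408, entinostat 413, 418 and 421 (adjusted p 0.0547 to 0.119), and without any 1 of baseline 419 and vehicle 402, 414 and 424 it fell under the filter and was not tested. Ccl28, the CCR10 ligand, did not pass the filter and had a highest value of 7.20. Epithelial markers also fell against vehicle, as given above, and a link between them and these ligands was not tested. Ccl20 reached the filter in baseline and vehicle libraries alone, so its presence among the tested genes is tied to its level there. Against baseline, neither Ccl20 nor Ccl25 passed under the main settings, while 10 of 10 epithelial markers were lower.

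Among the neutrophil-attracting ligands, Cxcl3 had the largest fall of all members. Cxcl3 stood at 236, 613, 124, 352 and 90.1 with entinostat, at 6427, 3562, 4230.2, 6323, 4037 and 442 with vehicle and at 2119, 6253, 3217 and 2900.1 at baseline. Vehicle library 424 was the exception within its group and lay inside the entinostat range, while the other vehicle and all baseline libraries lay above it, and the difference was -3.83 (SE 0.64, adjusted p = 0.000159), a 14.2-fold fall. Cxcl5 (LIX) stood at 1067, 974, 1789, 858 and 947 with entinostat and 8864, 2616, 6949, 4480.1, 7445 and 348 with vehicle, where library 424 was again the lowest, and the difference was -1.69 (SE 0.67, adjusted p = 0.0435). Without 424 it was -2.36, and the call was lost without any 1 of baseline 419, 426, vehicle 402, 405, 408, 410, 414, entinostat 411, 413, 421 and 423 (adjusted p 0.05 to 0.091).

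The other two genes of that chromosome 5 block did not pass the test against vehicle. Cxcl2 (MIP-2) stood at 324, 233, 201, 608 and 295 with entinostat and 914, 409, 834, 1034, 787 and 178 with vehicle, a difference of -0.96 (SE 0.47, adjusted p = 0.0956). Cxcl1 (KC) stood at 172, 105, 423, 188 and 88.2 with entinostat and 25.2, 17.5, 56.2, 14.3, 58.9 and 227 with vehicle, a difference of 1.98 (SE 0.84, adjusted p = 0.0557), opposite in sign to that of Cxcl3. Without vehicle 424, the same library as for Cxcl3 and Cxcl5, both passed, Cxcl2 at -1.30 (adjusted p = 0.0115) and Cxcl1 at 2.47 (adjusted p = 0.0161). Cxcl2 also passed without entinostat 421 (adjusted p = 0.0491) and with quantile normalization (adjusted p = 0.0452), and Cxcl1 without baseline 415 or 426 (adjusted p = 0.0264 and 0.0347), with a pseudocount of 5 (adjusted p = 0.0355) and with only the compared groups (adjusted p = 0.0264). Cxcl1, Cxcl2 and Cxcl3 each hold the NF-kappaB word printed above, in the form GGAATTTCC. Whether the genes of the block differed from one another was not tested. Summed neutrophil markers were 14160.3 to 29475 with entinostat and 1442 to 9011 with vehicle, the opposite direction to Cxcl3 and Cxcl5.

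Cxcl12 (SDF-1), the stromal ligand of CXCR4 and of the atypical receptor ACKR3, had the largest rise of all members. It stood at 13424, 10833, 31186, 14334 and 20729.8 in entinostat libraries, at 4236, 16.1, 59.6, 1845, 89.9 and 244 in vehicle and at 965, 845, 319.1 and 73.3 at baseline. All entinostat values lay above all others, and the difference from vehicle was 6.14 (SE 1.17, adjusted p = 0.00047), or 70.8-fold. The vehicle group was uneven, with 402 and 410 high and 405 low: the difference was 6.98 without 402, 6.74 without 410 and 5.39 without 405. Summed fibroblast markers were 477077 in vehicle 402, 95783 in 410 and 2673 in 405.

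Cxcl13, the ligand of CXCR5 that organizes B cell follicles, stood at 68.5, 213, 582, 123 and 329.9 with entinostat and 227, 0, 1.28, 67.1, 0.620 and 0 with vehicle. Of the vehicle libraries, 402 and 410 reached into or close to the entinostat range and the other four were near 0, and the difference was 5.04 (SE 1.48, adjusted p = 0.00921). It was 6.08 without 402 and 5.73 without 410. Cxcl14, an epithelial and stromal ligand, ranged over 107 to 5135 with vehicle and 923 to 2050.0 with entinostat, a difference of 1.43 (SE 0.85, adjusted p = 0.163) that did not pass, while without vehicle 402 it was 2.10 and passed (adjusted p = 0.0151). Cxcl17, a mucosal ligand, ranged over 0 to 52.0 and 0 to 42.2, a difference of -2.22 (SE 1.24, adjusted p = 0.14) that did not pass. Cxcl17 passed as lower without vehicle 424 (-3.07, adjusted p = 0.027), without entinostat 418 (-3.08, adjusted p = 0.0447) and with cyclic loess normalization (-3.33, adjusted p = 0.0287).

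Cxcl16, a membrane-anchored ligand of CXCR6 that macrophages and dendritic cells display, had the smallest error of all members. It stood at 7718, 9112, 9586, 9278 and 9901 with entinostat, at 2459.7 to 4125 (median 3459) with vehicle and at 3309, 4089, 3738 and 2466 at baseline. The groups were tight and did not overlap, and the difference was 1.46 (SE 0.16, adjusted p = 4.34e-06), a 2.75-fold rise. Xcl1 (lymphotactin), a product of activated CD8 T and NK cells, ranged over 11.7 to 26.0 with entinostat and 7.61 to 81.6 with vehicle, a difference of -0.77 (SE 0.56, adjusted p = 0.25) that did not pass. Xcl1 passed as lower without vehicle 405 (-1.18, adjusted p = 0.0452) and with quantile (-1.31, adjusted p = 0.0318) or cyclic loess normalization (-1.34, adjusted p = 0.0395). Summed T cell markers over the same groups were 3838 to 9120.4 and 789 to 2109.

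**Figure D3:**
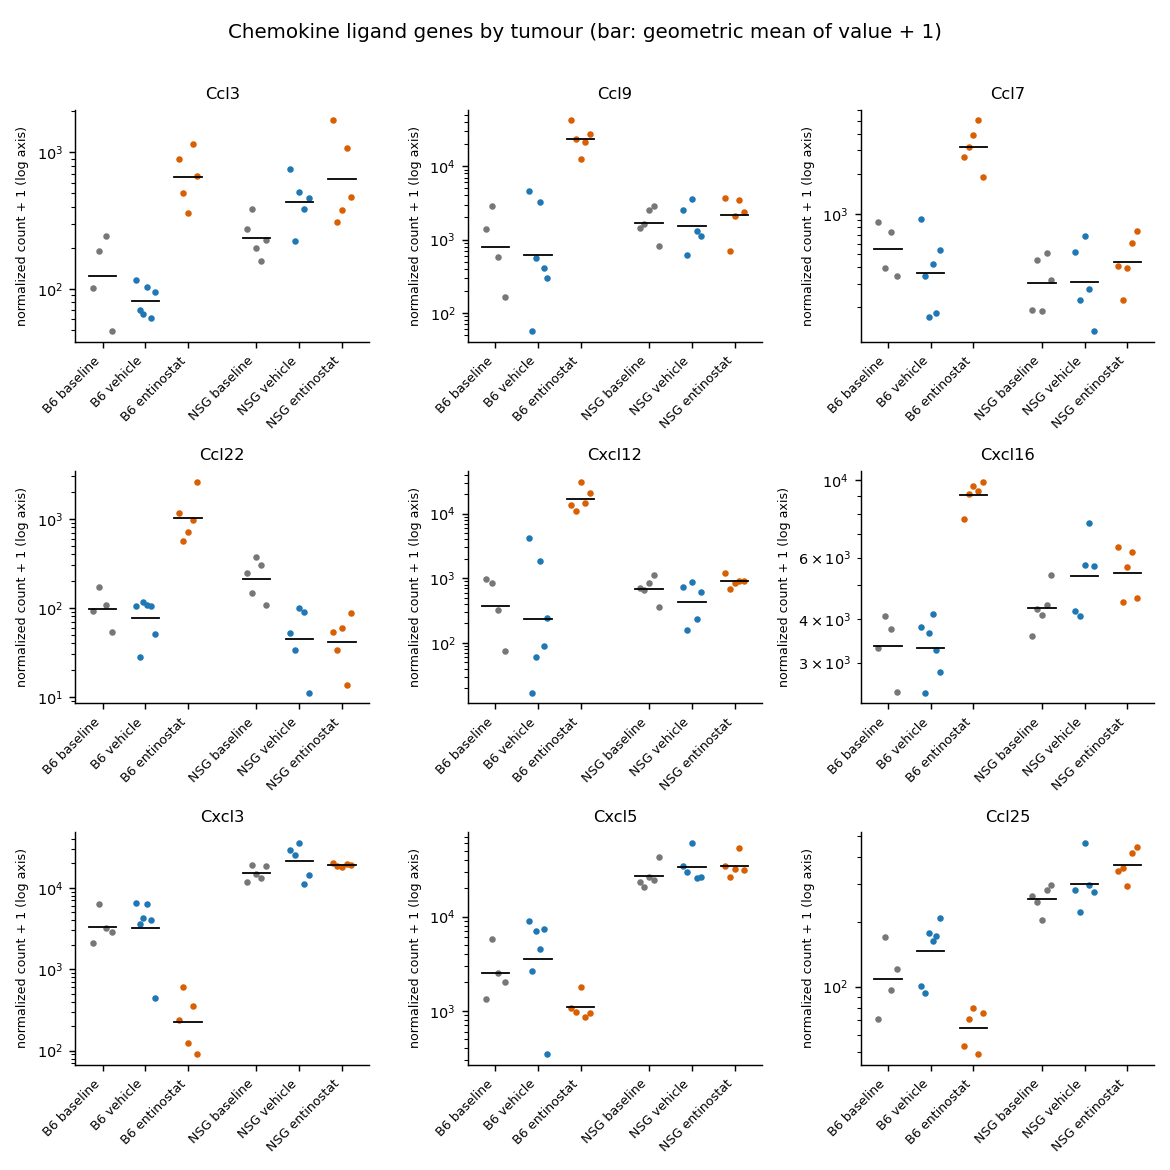
Normalized count + 1 (log axis) of 9 ligands in each tumour, by group (B6 and NSG; grey baseline, blue vehicle, orange entinostat; points are tumours, bars the geometric mean of value + 1). In B6, Cxcl12 lies at 10833 to 31186 with entinostat against 16.1 to 4236 with vehicle, Cxcl3 lies lower with entinostat apart from vehicle 424, and the NSG groups overlap between entinostat and vehicle.

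Of the receptors, Ccr1, Ccr2, Ccr3 and Ccr4 rose in B6 entinostat tumours. Ccr1, carried by monocytes, macrophages and neutrophils, stood at 6459, 6895, 4167, 4959 and 7488 with entinostat and 179 to 945 (median 494) with vehicle, a difference of 3.78 (SE 0.43, adjusted p = 5.53e-06). Ccr2, which marks inflammatory monocytes, stood at 3143, 3815, 3894, 2866 and 4149 with entinostat and 74.2 to 786 (median 203) with vehicle, a difference of 3.93 (SE 0.49, adjusted p = 1.17e-05). Neither receptor overlapped between the groups, and of their ligands described above Ccl3, Ccl6, Ccl9, Ccl7 and Ccl12 rose while Ccl2 did not pass.

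Ccr3, the eotaxin receptor of eosinophils, stood at 89.4, 83.9, 34.1, 90.8 and 83.0 with entinostat and 36.1, 8.997, 4.50, 9.98, 8.01 and 8.10 with vehicle. Vehicle 402 was above entinostat 418, the only overlap, and the difference was 2.72 (SE 0.54, adjusted p = 0.000581). Ccr4, the receptor of Ccl17 and Ccl22 on T cells, stood at 33.7, 18.0, 25.6, 13.0 and 79.3 with entinostat and 6.96, 0, 3.21, 1.25, 1.23 and 0 with vehicle, without overlap, a difference of 3.61 (SE 0.61, adjusted p = 0.000157). Vehicle values of Ccr4 were worth only a few reads each. Ccr9, the gut-homing receptor, ranged over 3.42 to 47.9 with entinostat and 1.45 to 8.06 with vehicle, a difference of 1.38 (SE 0.63, adjusted p = 0.0736) that did not pass, while without entinostat 421 it was 1.77 and passed (adjusted p = 0.0264). Ccr6 and Ccr10, the receptors of Ccl20 and Ccl28, did not pass the filter, with 3.52 to 52.4 and 3.24 to 10.8 in entinostat libraries and 0 to 4.13 and 2.25 to 7.70 in vehicle libraries. With no filter Ccr6 passed as higher (2.48, adjusted p = 0.00394).

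Cxcr4, the CXCL12 receptor of most leukocytes, stood at 5066, 4495, 5151, 3463 and 5050.3 with entinostat and 2754, 177, 394, 497, 381 and 549.9 with vehicle. Vehicle 402 was high but below every entinostat value, and the difference was 3.14 (SE 0.54, adjusted p = 0.000186). Cxcr6, the CXCL16 receptor of effector and resident T cells, stood at 471, 643, 631, 332 and 1039 with entinostat and 60.1 to 166 (median 115) with vehicle, without overlap, a difference of 2.36 (SE 0.29, adjusted p = 1.17e-05). Cx3cr1, the fractalkine receptor of monocytes and macrophages, stood at 754, 2949.7, 2683, 733 and 1528 with entinostat and 31.5 to 863 (median 207) with vehicle, where only vehicle 402 reached the entinostat range, and the difference was 3.03 (SE 0.68, adjusted p = 0.0016). It rose while its ligand Cx3cl1 fell. Cxcr5, the CXCL13 receptor of B and follicular T cells, stood at 3.49, 42.0, 10.7, 11.4 and 126 with entinostat and 4.50 to 16.2 with vehicle, and its difference of 1.18 (SE 0.71, adjusted p = 0.169) did not pass, while without entinostat 411 it was 1.72 and passed (adjusted p = 0.041). Its highest value, in entinostat 423, came from the library with the highest summed B and plasma cell markers (23502).

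Of the atypical receptors, Ackr1 and Ackr2 rose and Ackr3 did not pass. Ackr1 (DARC), carried by venular endothelium and red cells, stood at 328, 372, 1111, 768 and 299 with entinostat and 32.8, 0, 12.1, 201, 5.56 and 2.72 with vehicle, with no overlap and a difference of 5.46 (SE 1.12, adjusted p = 0.000809). The difference was 4.76 without vehicle 405 and 6.29 without vehicle 410, the highest of its group. Ackr2 (D6), which clears inflammatory CC chemokines, stood at 117, 44.4, 158, 98.9 and 96.2 with entinostat and 4.50 to 27.4 (median 17.9) with vehicle, with no overlap and a difference of 2.69 (SE 0.50, adjusted p = 0.000392). Ackr3, which clears CXCL12, ranged over 529 to 1469 with entinostat and 249 to 1568 with vehicle, a difference of 0.63 (SE 0.44, adjusted p = 0.238). Summed endothelial markers were 11612 to 18821 with entinostat and 744 to 19436 with vehicle.

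**Figure D4:**
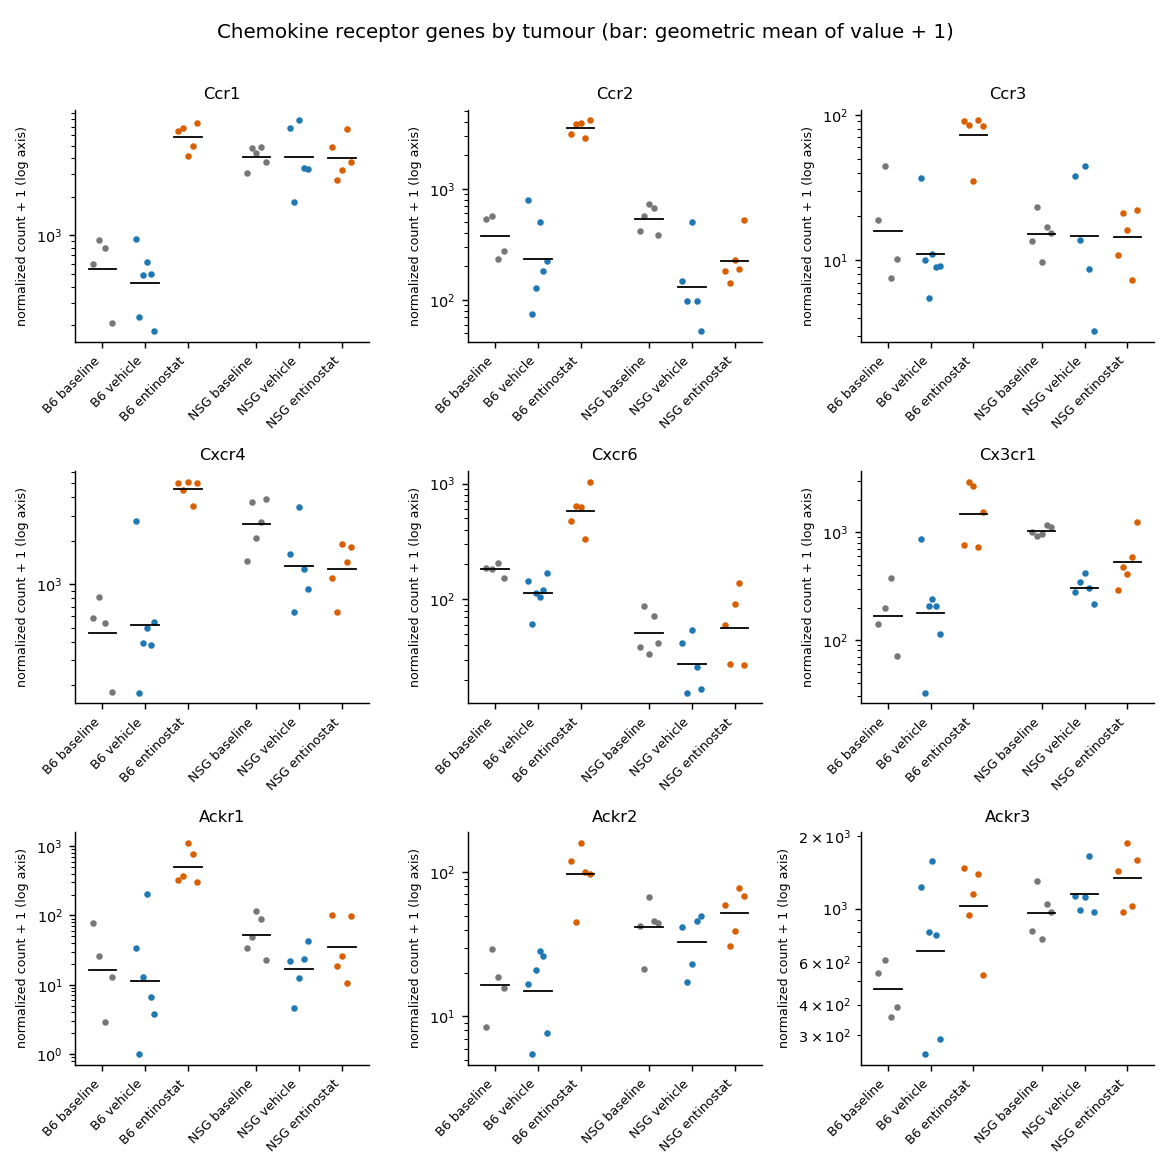
Normalized count + 1 (log axis) of 9 receptors in each tumour, by group (B6 and NSG; grey baseline, blue vehicle, orange entinostat; points are tumours, bars the geometric mean of value + 1). In B6, Ccr1 lies at 4167 to 7488 with entinostat against 179 to 945 with vehicle, while Ackr3 overlaps between the groups.

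The genes that carry the receptors' signal were read from a list of 28 (G protein subunits, arrestins, regulators of G protein signalling, phospholipases, PI3K gamma, Rac activators and kinases). Against vehicle, 23 of them rose, 3 fell and the median log2 difference was 2.92, shares of 82.1% and 10.7% beside 29.9% and 26.2% of all genes. Rgs1, which shortens chemokine receptor signals in leukocytes, rose by 5.20 (SE 0.38, adjusted p = 9.48e-08), and Ptk2b, a kinase downstream of chemokine receptors, rose by 1.77 (SE 0.12, adjusted p = 5.15e-08). Of 7 genes for enzymes that cut chemokines and for the presenting receptor Ccrl2, 4 rose and 1 fell (57.1% and 14.3%). Mmp12, a macrophage protease that clips CXC and CC ligands, rose by 7.01 (SE 0.69, adjusted p = 1.37e-06), and Mmp14 rose by 2.45 (SE 0.36, adjusted p = 5.61e-05). Among 12 genes of the NF-kappaB system 3 rose, 2 fell and the median difference was -0.10, and these shares (25% and 16.7%) were no higher than those of all genes. Ikbkb, a kinase that releases NF-kappaB, rose by 0.97 (SE 0.13, adjusted p = 1.73e-05), and the inhibitor Nfkbie rose by 1.93 (SE 0.47, adjusted p = 0.00258).

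Against baseline, B6 entinostat tumours had 24 of 38 members higher and 2 lower, where 29.1% of the 17053 genes were higher and 25.3% lower. The 2 comparisons share the entinostat libraries, so their likeness is not separate evidence. The 22 members that rose against vehicle were also higher than at baseline, and Cxcl3 was lower than in either group. The number lower than baseline was 4 without vehicle 424, which enters only through the shared spread. The differences from baseline were 5.49 (SE 1.30, adjusted p = 0.00253) for Cxcl12, 4.91 (SE 1.08, adjusted p = 0.00149) for Ccl9 and -3.88 (SE 0.71, adjusted p = 0.000386) for Cxcl3. For the receptors Ccr1 and Ccr2 they were 3.41 (SE 0.48, adjusted p = 4.38e-05) and 3.25 (SE 0.54, adjusted p = 0.000178).

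Cxcl1, Cxcl14 and Xcl1 passed against baseline and not against vehicle. Cxcl1 stood at 71.4, 6.36, 10.5 and 1.03 at baseline, below all entinostat values, a difference of 3.98 (SE 0.93, adjusted p = 0.00225). Cxcl14 stood at 757, 192, 343 and 47.7 at baseline and 923, 1073, 2050.0, 1088 and 2040.1 with entinostat, a difference of 2.603 (SE 0.94, adjusted p = 0.0286). Xcl1 fell, from 137, 61.3, 51.6 and 34.5 at baseline to 11.7, 16.9, 23.2, 26.0 and 24.3 with entinostat, a difference of -1.62 (SE 0.62, adjusted p = 0.0372). Baseline 426, the baseline library with the lowest summed macrophage and fibroblast markers (11587 and 9754), held the lowest baseline value of Cxcl1, Cxcl14 and Xcl1. Ccl20, Ccl25, Cxcl5 and Cx3cl1, which fell against vehicle, differed from baseline by -1.10, -0.76, -1.20 and -0.72 and did not pass.

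Some members that did not pass against baseline did so when 1 library was left out: Ccl25 as lower without baseline 415 (-0.96, adjusted p = 0.031), Cxcl2 as lower without baseline 426 (-1.44, adjusted p = 0.0326) or vehicle 424 (-1.02, adjusted p = 0.0477), and Cxcl5 as lower without vehicle 424 (-1.20, adjusted p = 0.0233). Ackr3 passed as higher without any 1 of vehicle 405, 410 and 424 (1.15 in each) and entinostat 423 (1.39, adjusted p = 0.0305), and Cxcr5 without entinostat 411 (2.25, adjusted p = 0.0187).

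Several of the baseline comparisons rest on single libraries. Calls were lost for Ccl4 and Ccl5 without baseline 426 (adjusted p 0.0747 and 0.0511), for Ccl8 without any 1 of baseline 419, 426, entinostat 418 and 421 (up to 0.103), and for Ccl17 without any 1 of baseline 419, 426, entinostat 411 and 421 (up to 0.0895). They were also lost for Cxcl13 without any 1 of baseline 419, 426, entinostat 413, 418 and 423 (up to 0.119), for Cxcl14 without any 1 of baseline 416, 426, entinostat 418 and 423 (up to 0.111) and for Xcl1 without any 1 of baseline 415, 416, 419, entinostat 411, 413 and 418 (up to 0.127). The difference of Cxcl1 was 3.19 without 426 and 4.91 without 415. For Cxcl12 it was 4.72 without 426. Without 426 and without 416 it was 4.16 and 5.54 for Ccl9, and 3.45 and 4.81 for Ccl6. For Ackr1 it was 5.65 without 415 and 4.08 without 419. For Cxcl14 and Cxcl13 it was 1.87 and 3.30 without 426, 3.19 and 5.17 without 415, and, for Cxcl13, 5.17 without 416.

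Between B6 vehicle and baseline, 0 of 38 members and 0 of 17053 genes (0%) passed with limma, and 4 members and 749 genes had an unadjusted p under 0.05. Those 4 were Ccl5, Ccl2, Cxcl1 and Cxcr6, with log2 differences of -1.02, -1.17, 2.005 and -0.69. The median difference of the members was -0.36, against -0.01 for all genes.

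In NSG hosts, 0 of 38 members and 0 of 17752 genes (0%) passed between entinostat and vehicle with limma, where 6 members and 1287 genes had an unadjusted p under 0.05. The members' log2 differences ran from -1.70 (Ccl20) to 1.43 (Cxcl13), with a median of 0.21 against -0.03 for all genes. Cxcl12 stood at 1221, 675, 842, 906 and 901 with entinostat and 735, 155, 879, 230.0 and 616 with vehicle, overlapping, with a difference of 1.06 (SE 0.42, adjusted p = 0.682). Ccl22 stood at 53.0, 32.6, 57.9, 12.7 and 85.9 and 51.4, 32.9, 99.1, 88.4 and 10.2, a difference of -0.10 (SE 0.59, adjusted p = 0.975). Cxcl3 stood at 20122, 18476, 17855, 19619 and 19354 and 28803, 25344, 35588, 11239 and 14412, and Cxcl16 at 6412, 4469, 5629, 6225 and 4592 and 4205, 4083, 5702, 7550.1 and 5654, with differences of -0.15 and 0.03. The entinostat and vehicle ranges of all 38 tested members overlapped in NSG tumours, and only 0.783% of all 17752 genes had ranges that did not overlap. Xcl1, whose usual sources are T and NK cells, was listed at 0 in all 15 NSG libraries. Ccr4 and Ccr6 did not pass the filter, with highest values of 9.79 and 15.7. Ccr9 would not have passed the NSG filter without baseline libraries, where it was highest, so its presence among the tested genes is tied to its baseline level.

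Both later NSG groups differed from baseline in a few members. Against baseline, vehicle tumours had 1 member higher and 3 lower of 38 (2.63% and 7.89%), where 7.53% of all genes were higher and 5.5% lower. The members' share was thus below that of all genes for rises and close to it for falls. Cxcl2, the neutrophil ligand, stood at 2468, 3915, 3232, 3961 and 4658 at baseline and 11159, 5033, 12991, 6978 and 9483 with vehicle, without overlap, a difference of 1.28 (SE 0.30, adjusted p = 0.0214). Ccl22 fell from 247, 145, 374, 302.9 and 105 to 51.4, 32.9, 99.1, 88.4 and 10.2, without overlap, a difference of -2.25 (SE 0.59, adjusted p = 0.0286). Ccr2 and Cx3cr1 fell too, while Ccr1, also carried by monocytes, did not pass: Ccr2 went from 416, 569, 723, 667 and 384 to 147, 97.2, 506, 95.8 and 51.3, a difference of -2.04 (SE 0.48, adjusted p = 0.0215), and Cx3cr1 from 1003, 920.3, 962, 1177 and 1119 to 281, 342, 417, 300.5 and 215, without overlap, a difference of -1.76 (SE 0.29, adjusted p = 0.014).

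Beside these changes, 6 of 8 dendritic cell, 5 of 10 fibroblast, 4 of 7 endothelial and 3 of 14 macrophage markers fell in NSG vehicle tumours. So did 2 of 4 eosinophil, basophil and mast cell markers. Of the markers tested, 5 of 8 neutrophil and 2 of 10 epithelial markers rose, where 5.5% of all genes fell and 7.53% rose. The part of these shifts in the member values was not tested. Members that fell numbered 5 without vehicle NSG-311 or entinostat NSG-319, 1 without any 1 of baseline NSG-305 and vehicle NSG-323 and NSG-326, and 0 without baseline NSG-303. Those that rose numbered 2 without any 1 of baseline NSG-316, vehicle NSG-302 and NSG-308 and entinostat NSG-319. The members added in these were Cxcl13 (without each of baseline NSG-316, vehicle NSG-302 and NSG-308 and entinostat NSG-319), Ccr9 (without vehicle NSG-302 or entinostat NSG-319), Ccl5 (without vehicle NSG-311 or entinostat NSG-319) and Cxcr4 (without vehicle NSG-311). Calls were lost for Ccl22 and Ccr2 without any 1 of baseline NSG-303, NSG-305, vehicle NSG-323 and NSG-326 (adjusted p up to 0.0805 and 0.0663), for Cxcl2 without any 1 of baseline NSG-303, NSG-305 and vehicle NSG-326 (up to 0.0670) and for Cx3cr1 without baseline NSG-303 (0.0502). In the same comparison 8 of the 28 signalling genes fell and 0 rose, shares of 28.6% and 0% beside 5.5% and 7.53% of all genes. Among those that fell were Plcb2 at -1.19 (SE 0.26, adjusted p = 0.0189) and Elmo1 at -1.03 (SE 0.23, adjusted p = 0.0199). Dpp4, which trims the ends of many chemokines, fell, at -1.93 (SE 0.51, adjusted p = 0.0295), as did Rel of the NF-kappaB list, at -0.76 (SE 0.18, adjusted p = 0.0213).

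NSG entinostat tumours had 2 of 38 members higher than baseline and 0 lower (1 without vehicle NSG-308, Ccr9, or NSG-326, Ccl22, and 3 without entinostat NSG-327, Ccr9, Ccl22 and Cx3cr1), where 0.208% of all genes were higher and 0.197% lower. Cxcl2 stood at 16686, 7934, 8770.3, 16299.6 and 6461, above all baseline values, a difference of 1.55 (SE 0.30, adjusted p = 0.0397). Cxcl13 stood at 64.7, 71.8, 152, 235 and 69.0 at baseline and 1595, 875, 465, 1911 and 1707 with entinostat, without overlap, a difference of 3.48 (SE 0.66, adjusted p = 0.0397). In vehicle tumours Cxcl13 stood at 329.8, 81.6, 528, 507 and 2065, a difference from baseline of 2.06 (SE 0.66, adjusted p = 0.0512) that did not pass. The Cxcl2 call was lost without any 1 of baseline NSG-303, NSG-304, NSG-305, NSG-316, NSG-320, entinostat NSG-306, NSG-312, NSG-315 and NSG-319 (adjusted p 0.0563 to 0.126) and the Cxcl13 call without any 1 of baseline NSG-303, NSG-304, NSG-305, NSG-316, NSG-320, entinostat NSG-306, NSG-312 and NSG-319 (adjusted p 0.0727 to 0.111). The 2 NSG comparisons with baseline share the baseline libraries. Neutrophil markers rose in 5 of 8 cases, with summed levels of 45221 to 119876 with entinostat and 20770.2 to 38409 at baseline.

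Whether entinostat and vehicle differed by unlike amounts in the hosts was tested as the B6 log2 difference minus the NSG log2 difference. Of 40 members tested, 20 were more positive and 2 more negative in B6, where 23.5% of the 18470 genes were more positive and 17.8% more negative. The median over members was 1.94, against 0.06 over all genes. The most positive was Cxcl12 at 5.08 (SE 1.33, adjusted p = 0.00336), followed by Ccl9 at 4.75 (SE 1.17, adjusted p = 0.00196) and Ackr1 at 4.40 (SE 1.39, adjusted p = 0.0129). Next came Ccl6 (3.87), Ccl22 (3.86), Ccr1 (3.78) and Ccr4 (3.64), and Cxcl16 at 1.43 (SE 0.24, adjusted p = 2.92e-05) was small with a small error. Ccr4 was tested here through its B6 entinostat libraries alone and did not pass the NSG filter. Its place in this ranking is thus tied to its B6 level after treatment.

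The members more negative in B6 (5 without B6 vehicle 424) were Cxcl3 at -3.68 (SE 0.73, adjusted p = 0.000257) and Ccl25 at -1.48 (SE 0.35, adjusted p = 0.00131). Ccl8, Ccl20, Cxcl5, Cxcl13, Cx3cl1 and Cxcr6 passed in B6 tumours but not in the test between hosts, where their adjusted p values were 0.236, 0.973, 0.0698, 0.0933, 0.0534 and 0.0696. Of these, leaving out 1 library gave a call for Cxcl5 (B6 vehicle 424, -2.41), Cxcl13 (B6 vehicle 402 or 410, 4.66 and 4.31), Cx3cl1 (B6 vehicle 405 or 424, entinostat 418, vehicle NSG-308 or entinostat NSG-319, -1.38 to -1.68) and Cxcr6 (B6 entinostat 421, vehicle NSG-308 or NSG-326, entinostat NSG-315 or NSG-319, 1.503 to 1.652). It also gave calls for Cxcl2 (B6 vehicle 424 or entinostat 421, -1.57 and -1.47), Cxcl14 (B6 vehicle 402, 1.94) and Ccl11 (B6 vehicle 405, 3.10). Ccr9 passed between hosts (2.16 (SE 0.84, adjusted p = 0.0396)) without passing in either host. Calls were lost for Ccr9 without any 1 of 9 libraries (B6 vehicle 402, 405, 424, entinostat 418, 423, vehicle NSG-302, NSG-311, NSG-326 and entinostat NSG-319; up to 0.0945) and its difference was 1.56 without entinostat NSG-319. They were lost for Ccl17 without any 1 of 7 (B6 vehicle 405, 424, entinostat 411, 421, vehicle NSG-311, NSG-323 and entinostat NSG-312; up to 0.0660) and for Cx3cr1 without B6 entinostat 413 (0.0515).

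As in B6 alone, vehicle libraries moved the largest host differences. Cxcl12 was 5.91 without B6 vehicle 402, 5.67 without 410 and 4.32 without 405. Without 405, Ccl9 was 4.05, Ccl6 3.15 and Ackr1 3.70, and Ackr1 was 5.23 without 410. Over the same contrast, 14 of 14 macrophage, 10 of 10 fibroblast and 7 of 7 skeletal muscle markers were more positive in B6. So were 9 of 13 T cell, 4 of 7 endothelial, 4 of 8 dendritic cell and 4 of 9 neutrophil markers. Epithelial markers were more negative in 10 of 10 cases, where 23.5% of all genes were more positive and 17.8% more negative. Host, dose and collection volume cannot be told apart here, since those of the NSG mice were not stated. Of the 41 genes, Ccl2, Ccl11, Ccl24, Ccl28, Cxcl17, Ccr6, Ccr10, Cxcr5 and Ackr3 passed in none of the 7 comparisons, with Ccr6 tested in none. Some of these did pass under an alternative: Ccr6 without the filter, Cxcr5 without B6 entinostat 411, Ccl11 and Cxcl17 as described, and Ackr3 against baseline as described. Without the filter the Ccr6 difference was 2.80 against baseline (adjusted p = 0.00371) and 2.82 between hosts (adjusted p = 0.00687).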

How the data were processed

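RNA from 30 subcutaneous BBN963 tumours was measured (RNeasy Plus Mini extraction and TruSeq Stranded mRNA libraries, per the labels' protocols). The deposited values are a normalized signal, gene counts divided by DESeq2 size factors in 1 table per host, after STAR alignment to mm10, per the submitters' processing notes; versions and annotation are not given in the sources used here. Whole reads could not be recovered: only 20.4 to 77.0% of values under 10 reads lay within 0.05 of a whole number, so no count test was run. Groups came from the labels, and 1 labelled B6 entinostat sample has no column and was not analysed here.

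Genes with a value of 10 or more in at least 4 (B6) or 5 (NSG) libraries were tested with limma 3.58.1 (R 4.3.3; trend and robust options) on log2(value + 1), all 3 groups of a host in 1 fit, with Benjamini-Hochberg adjustment over all genes and a threshold of 0.05. The small added constant understates changes of low genes. The host difference came from 1 fit of the 6 groups. The step was tested on simulated data. Members and lists were chosen with earlier results of these data known. Full values are printed for members that passed in any comparison and averaged 50 or more in one of its groups. They are also printed for Ccl2, Ccl20, Ccl28, Ccr4, Ccr9, Ccr10 and Cxcr5, which do not meet that rule. Of each list, the 2 genes with the smallest p could be named. Alternatives were pseudocounts of 0.5 and 5, no filter, quantile or cyclic loess normalization, only the compared groups in the fit, limma without trend and robust options, and leaving out each library, the entinostat library richest in muscle markers and the library of lowest depth. Averaging B6 vehicle 408 and 414 was added after seeing the data. The p-values measure the spread between libraries labelled as tumours of separate mice, all of 1 transplanted line. Whether vehicle 408 and 414 are 2 tumours was not tested. With their average in their place, Ccl20, Cxcl5 and Cx3cl1 no longer passed against vehicle (limma, adjusted p = 0.0608, 0.0899 and 0.0855).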

Additional observations from a re-analysis of the deposited data

Results flagged for a closer look

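Of 228 groups of a member examined, 9 held a library far from the rest of its group on the log2 scale, where chance gives about 1 in 20. In B6 vehicle tumours, Cxcl3 was 442 in library 424, against 3562 to 6427 in the others, and Cxcl17 was 0 in 424, against 15.1 to 52.0. In vehicle 402, Ccl24 was 38.0, against 84.7 to 129, and Ccr3 was 36.1, against 4.50 to 9.98. In B6 entinostat tumours, Ccr3 was 34.1 in 418, the library of lowest depth in that host, against 83.0 to 90.8. In NSG vehicle tumours, Ccl12 was 609 in NSG-311, against 216 to 255, and Ackr3 was 1651 in NSG-323, against 966 to 1128. In NSG entinostat tumours, Ccl20 and Ccr9 were 0 in NSG-319, the shallowest library of all, against 9.06 to 19.8 and 5.50 to 9.82.

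Between hosts, 22 members differed in the log2 difference of entinostat from vehicle (B6 minus NSG, limma). Among ligands these were Ccl3 (2.45), Ccl4 (2.30), Ccl5 (1.86), Ccl6 (3.87), Ccl9 (4.75), Ccl7 (2.63), Ccl12 (3.15), Ccl17 (3.25), Ccl22 (3.86), Cxcl12 (5.08) and Cxcl16 (1.43), all more positive in B6, and Ccl25 (-1.48) and Cxcl3 (-3.68), more negative. Among receptors these were Ccr1 (3.78), Ccr2 (3.13), Ccr3 (2.75), Ccr4 (3.64), Ccr9 (2.16), Cxcr4 (3.19), Cx3cr1 (2.23), Ackr1 (4.40) and Ackr2 (2.03), all more positive in B6. Ccr9 passed in neither host alone and is low in both, with a highest value of 47.9 in B6. Ccr4 reached the filter through B6 entinostat libraries alone, so its place among these members is tied to its level there.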

How the results depend on the processing

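No paired analysis was possible because the compared groups share no mouse number. Of 2321 recomputed log2 differences of called members, 2181 kept their call, 140 lost it and 0 changed sign, and 60 of 81 called results kept their call under every alternative that tested them. Quantile normalization shifted the median of all genes in B6 entinostat against vehicle to -0.16, and member signs held. Members lower than vehicle in B6 numbered 2 without the filter, without the muscle-rich entinostat library and with 408 and 414 averaged, 3 with only the compared groups, and 2 to 6 leaving out 1 library; Cxcl3 and Ccl25 stayed lower in all of them. Members lower than baseline in B6 numbered 1 without the filter, without the muscle-rich and without the shallowest library, 4 with cyclic loess or only the compared groups, and 1 to 4 leaving out 1 library. The share of all genes called without the filter was 37.3% in B6 entinostat against vehicle, 35.4% against baseline and 24.1% between hosts, over more genes tested. It was 0.00586% in B6 vehicle against baseline with quantile normalization, 0.00592% without the shallowest library and 0 to 0.0118% leaving out 1 library, and 0 to 0.00567% in NSG entinostat against vehicle. In NSG entinostat against baseline, where it was 0.406%, it was 0.907% with a pseudocount of 5, 1.78% with quantile normalization, 3.33% with only the compared groups, 0.248% without trend and robust options, 0.00567% without library NSG-319, which is both muscle-rich and shallowest, and 0 to 5.32% leaving out 1 library. Its members higher numbered 1 with cyclic loess, 0 without trend and robust options or without NSG-319, and 0 to 2 leaving out 1 library, and its members lower 1 with a pseudocount of 5, quantile normalization or only the compared groups, and 0 to 3. In NSG vehicle against baseline, where the share was 13.0%, it was 4.75% without the filter, 20.9% without NSG-319 and 0 to 20.9% leaving out 1 library. Its members higher numbered 2 with quantile normalization or without NSG-319, range 0 to 2, and its members lower 5 without NSG-319, range 0 to 5. Members more negative in B6 than NSG numbered 5 with quantile normalization and 2 to 5 leaving out 1 library. The cause of these changes was not tested. Normalization ended calls between hosts for Ackr2 (1.44, adjusted p = 0.0542), Ccr9 (1.06, adjusted p = 0.295) and Ccl17 (2.72, adjusted p = 0.0551) with cyclic loess and for Ccr9 with quantile (1.27, adjusted p = 0.144). In B6 with cyclic loess it ended those of Ccl17 (1.97 against vehicle and 2.24 against baseline, adjusted p = 0.0654 and 0.0613), Cxcl5 against vehicle (-1.63, adjusted p = 0.0588) and Cxcl13 against baseline (3.67, adjusted p = 0.0556), and with quantile Ccl8 against baseline (1.31, adjusted p = 0.084). In NSG it ended that of Cxcl2 in entinostat against baseline with cyclic loess (1.43, adjusted p = 0.051). Ccr4 between hosts was not tested with either. The precision of members with values under about 10, such as Ccr4, Ccl20 and Ccr9, is limited by depth.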

Other observations

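Ccl28, Ccr10, Cxcl1 and Ccr9 passed in no comparison within NSG hosts under the main settings with all libraries. Ccl28, a mucosal ligand of CCR10, stood at 5.05, 5.30, 23.1, 14.9 and 55.7 at NSG baseline, 15.8, 8.22, 108, 80.5 and 36.1 with vehicle and 17.7, 36.3, 34.3, 137 and 69.3 with entinostat, with the range within a group wider than the differences between group medians. Ccr10 stood at 25.2, 27.3, 17.5, 18.1 and 12.0, 13.2, 15.6, 6.74, 7.78 and 4.52 and 4.42, 13.4, 13.7, 0 and 12.2 in the same order. Cxcl1 had 1 high NSG vehicle library, NSG-302 at 1397, where the other NSG libraries ranged from 20.9 to 277. Library NSG-302 also had the highest summed neutrophil markers of its group (102432). Ccr9 stood at 19.9, 31.8, 27.3, 28.6 and 31.0 at NSG baseline and at 16.4, 6.59, 7.76, 5.001 and 8.14 with vehicle. The groups did not overlap, and the difference of -1.64 (SE 0.56, adjusted p = 0.0617) did not pass. With entinostat it stood at 8.24, 5.53, 5.50, 0 and 9.82, also without overlap with baseline. Ccr9 reached the NSG filter only with its baseline libraries, where it was highest. It passed as lower than baseline in vehicle tumours with a pseudocount of 5, quantile normalization or only the compared groups (limma, adjusted p = 0.0217, 0.0193 and 0.0155). In entinostat tumours it passed with the pseudocount of 5 or quantile normalization (adjusted p = 0.0307 and 0.0212). Ccr6, tested in neither host, was highest in B6 entinostat 423 at 52.4, the library with the highest summed B and plasma cell markers (23502); the other B6 libraries were at 13.9 or less.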
